A study of Mus musculus with 4 samples.

Results

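The CpG islands of mouse chromosome 11 gave more whole DNA signal in clone 210-58, a Parp-1 deficient embryonic stem cell line, than in any of the other 3 samples of the study. All probes of the array that lie on chromosome 11 were joined into islands, runs of at least 3 probes with neighbouring starts at most 500 bp apart. This gave 1202 islands with 8098 probes, 8.51% of the 14121 regions formed in the same way over all chromosomes, and 119 of the 8217 chromosome 11 probes lay outside such runs. The chromosome was chosen by its Cy3 signal, the whole DNA channel, which was high in clone 210-58 against wild type, and a stretch with a further gain was set apart by the same values. All differences between arrays below are therefore descriptions, and none of the whole DNA, immunoprecipitated DNA or ratio values is offered as a test of the choice.

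Methylated DNA immunoprecipitation (MeDIP) pulls down DNA fragments with an antibody against 5-methylcytidine and compares them with the whole sonicated DNA of the same cells. On these arrays Cy5 marked the immunoprecipitated DNA and Cy3 the whole DNA, so Cy5 over Cy3 reads enrichment of methylated DNA and Cy3 alone reads how much DNA of a locus the sample held relative to the rest of its genome. The groups were clone 210-58 and clone 226-47, both Parp-1 deficient lines derived from J1, J1 cells treated with the Parp inhibitor PJ34, and untreated wild type J1. Each sample was 1 array without a dye swap, each Parp-1 deficient line is a single clone, and all 4 share the J1 background. The sources used here give neither the dose and duration of PJ34 nor the passage of the cells.

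CpG islands are short, CG-rich sequences at many promoters and are mostly free of methylation in embryonic stem cells, apart from imprinted, germline-specific and repressed loci. Parp-1 attaches chains of ADP-ribose to proteins at DNA breaks and on chromatin, and PJ34 blocks that activity. Mouse embryonic stem cell lines are known to gain whole chromosomes in culture, with chromosomes 8 and 11 among those gained most often. Chromosome 11 is rich in genes: in the RefSeq table of build GRCm38 it holds 1609 of 21900 protein-coding genes, or 7.35%, among them the whole Hoxb cluster of body-axis regulators, the imprinted growth regulator Grb10, Stat3, which relays the signal that keeps mouse embryonic stem cells undifferentiated, and Suz12, a subunit of the Polycomb repressive complex. The array files pair no gene with a probe, and no genome or annotation of their build was used here, so islands are given by position only. Positions are those of the array design, which are taken as mouse build mm8.

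The islands covered the chromosome from 3092895 to 121646773. They held a median of 6 probes (3 to 42) over a median of 657 bp, and the probes were 45 to 60 bases long. Over all probes the median raw Cy3 signal was 292 to 310 per array (local background 42 to 43) and the median raw Cy5 signal 133 to 154.5 (local background 56.5 to 57.5). On chromosome 11 at least 99.8% of probes were well above background in Cy3 on every array, while in Cy5 the share was 96.7% in clone 210-58, 98.5% in clone 226-47, 91.3% in PJ34 treated J1 and 94.1% in wild type. The Cy5 channel, and with it the log ratio, was thus the less precise one. Clone 210-58 and wild type lay on 1 slide, and clone 226-47 and PJ34 treated J1 on the other, so the comparison of clone 210-58 with wild type is within a slide, whereas slide cannot be told apart from PJ34 treatment or from clone 226-47 in the other comparisons with wild type. Arrays of DNA hold no marker of cell type, so the labelled cell type was not checked.

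All values below are log2 values centred on the median of their own array over all probes other than controls, and an island's value is the mean over its probes. The whole DNA (Cy3) signal of the 1181 islands outside the stretch had a median level of 0.56 in clone 210-58, 0.16 in clone 226-47, 0.079 in PJ34 treated J1 and 0.085 in wild type. The interquartile range was 0.33 to 0.84 in clone 210-58 and -0.21 to 0.39 in wild type. Taken island by island, clone 210-58 exceeded wild type by a median of 0.49, with an interquartile range of 0.41 to 0.57 and an SD of 0.13 over islands. That is a 1.40-fold signal.

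In clone 210-58 the Cy3 signal was above wild type in 1180 of the 1181 islands, or 99.9%. Over all 14121 regions the share above wild type was 50.5%, and since the rule used this contrast nothing is read from the difference in shares. Clone 226-47 had a median difference of 0.071 with 89.2% of the islands above wild type, against 68.1% of all regions. PJ34 treated J1 had a median difference of -0.0022 with 48.8% of the islands above wild type, against 55.4% of all regions. The gain was of similar size against the other arrays. Clone 210-58 exceeded clone 226-47 by a median of 0.42 and PJ34 treated J1 by a median of 0.49, with 99.7% and 99.9% of the islands above them, though all of these comparisons share the array of clone 210-58.

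Chromosome 11 stood apart from the other chromosomes in the Cy3 signal of clone 210-58. Chromosomes 8 and 14 were left out of the comparison because earlier results of these data showed lower signal than in wild type on them or on parts of them. Which side of that comparison had changed was not tested. Chromosome 14 as a whole had a median of -0.070 in clone 210-58 and 0.024 in clone 226-47. The medians of the 17 other chromosomes ran from -0.029 on chromosome 6 to 0.19 on chromosome X, with an SD of 0.050. Chromosome X was also the highest of these 17 in clone 226-47, at 0.11, and after PJ34, at 0.072. Chromosome 8 went the other way, with a median of -0.44 in clone 210-58, -0.42 in clone 226-47 and -0.0076 after PJ34. The plot of chromosome medians shows the low chromosome 8 in both clones and the high chromosome 11 in clone 210-58. In clone 226-47 chromosome 11, at 0.071, lay within the range of its other chromosomes (0.018 to 0.11). It was nevertheless above all of them except chromosome X, with chromosome 1 next at 0.062. For orientation, 3 copies against 2 would be 0.58 on the log2 scale by arithmetic. Chromosomes were not counted, and a gain in every cell cannot be told apart from a larger gain in part of the cells.

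**Figure D1:**
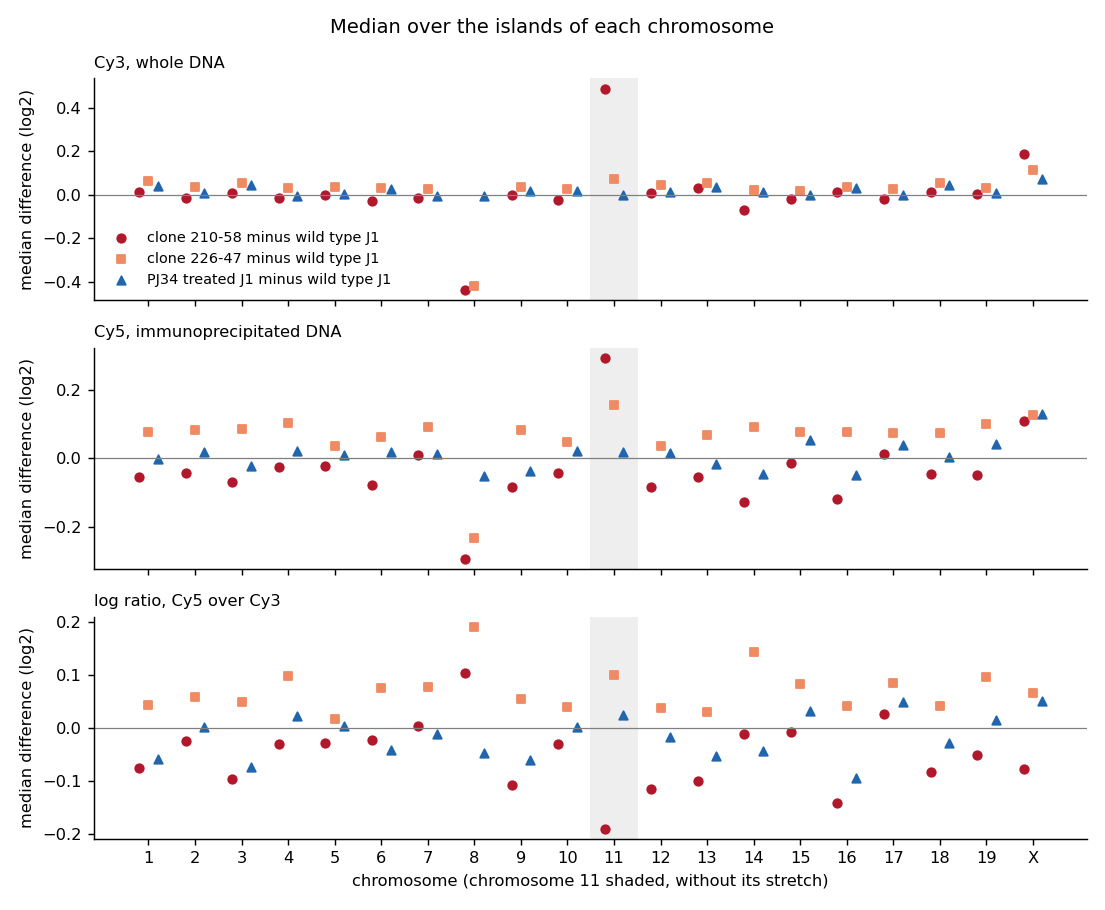
Median difference from wild type J1 (log2, vertical axes) over the islands of each chromosome (horizontal axis) in the Cy3 whole DNA signal, the Cy5 immunoprecipitated DNA signal and the log ratio, for clone 210-58, clone 226-47 and PJ34 treated J1. Each symbol is 1 array against the wild type array; chromosome 11 (shaded, without its stretch) is at 0.49 in Cy3, 0.29 in Cy5 and -0.19 in the log ratio of clone 210-58, and chromosome 8 is low in Cy3 and Cy5 of both clones.

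The gain ran along the whole chromosome. In 13 consecutive windows of 10 Mb, with 21 to 158 islands each, the median Cy3 difference of clone 210-58 was between 0.46 and 0.54. Every island was above wild type in all of these windows except that from 60 to 70 Mb, where 99.2% were. A running median over 9 neighbouring islands outside the stretch stayed between 0.34, at the islands around 96759690, and 0.67, around 43334399. In the same windows clone 226-47 had medians between 0.031 and 0.11, and PJ34 treated J1 between -0.025 and 0.055. The first island, from 3092895 to 3093775, was above wild type by 0.81 in clone 210-58, but also by 0.48 in clone 226-47 and by 0.64 after PJ34, so that wild type was the low array there. The last island, from 121646213 to 121646773, was above wild type by 0.64 in clone 210-58, by 0.095 in clone 226-47 and by 0.11 after PJ34.

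**Figure D2:**
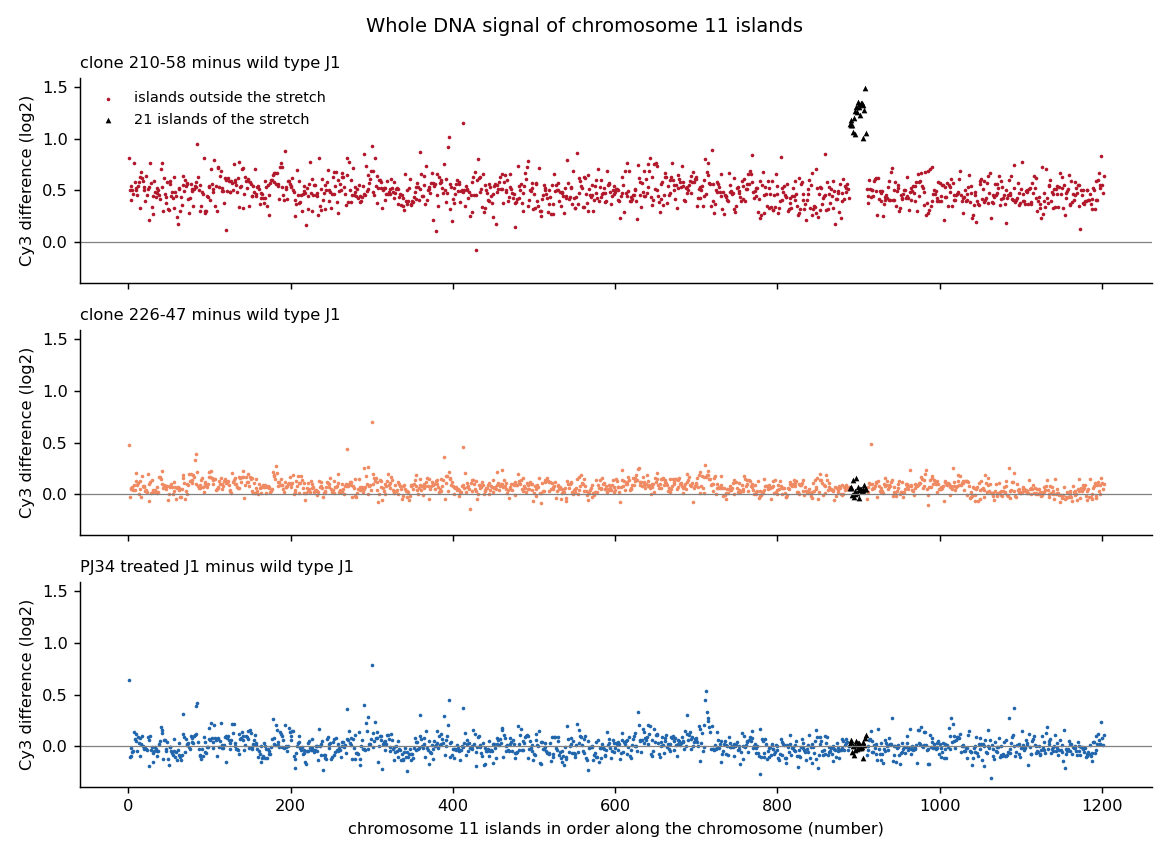
Cy3 difference from wild type J1 (log2, vertical axes) of each of the 1202 islands in order along chromosome 11 (horizontal axes, island number) for clone 210-58, clone 226-47 and PJ34 treated J1. In clone 210-58 the 1181 islands outside the stretch lie around 0.49 along the whole chromosome and the 21 islands of the stretch (triangles) around 1.26, while in the other comparisons both kinds lie near 0.

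Single probes carried the same shift with more scatter. Of the 7990 probes in islands outside the stretch, 98.1% were above wild type in clone 210-58 and 154 were not, with a median difference of 0.48 and an SD of 0.23 over probes. Within an island the SD over probes had a median of 0.18. The same share of probes above wild type was 73.6% in clone 226-47 and 47.4% after PJ34.

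How high an island stood followed how bright it was on the other arrays. Islands were put in 5 classes by their mean Cy3 level in clone 226-47, PJ34 treated J1 and wild type, which leaves out clone 210-58 itself. Wild type enters both the classes and the difference, so an island low in wild type tends to a dimmer class and a larger difference. How much of the trend comes from this was not tested. In the dimmest class, below -0.5 with 118 islands, the Cy3 difference of clone 210-58 from wild type had a median of 0.67 on chromosome 11 and 0.15 on the other chromosomes. In the brightest class, at 1 or more with 47 islands, it had a median of 0.30 on chromosome 11 and -0.17 on the other chromosomes. The difference of clone 210-58 was thus smaller in brighter classes on chromosome 11 and on the other chromosomes alike, and chromosome 11 minus the others stayed between 0.47 and 0.52 in all 5 classes. Chromosome 11 minus the others was 0.028 to 0.048 in clone 226-47 and -0.013 to 0.010 after PJ34 in the same classes.

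When each island was set against regions of the same brightness on the 17 other chromosomes, a step added after this trend had been seen, the gain of clone 210-58 had a median of 0.51. Its SD over islands was then 0.087, all 1181 islands were above 0, and they ran from 0.14 to 0.96. The only island that was not above wild type before this step, from 69376370 to 69376566 with 3 probes and a difference of -0.080, was the brightest of the 1202 islands. Its mean level over the other 3 arrays was 2.92, with the next at 2.17, and matched on brightness it stood at 0.14.

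The islands of 5 or more probes with the highest and lowest Cy3 differences in clone 210-58 followed the same pattern. The highest, from 18927255 to 18927736, had a Cy3 level of -0.67 in clone 210-58, -1.41 in clone 226-47, -1.21 in PJ34 treated J1 and -1.62 in wild type. It was thus dim on every array, and its difference of 0.95 from wild type became 0.68 when matched on brightness. The next, from 44461558 to 44462122, 61224207 to 61225002, 121267935 to 121268452 and 58146279 to 58147157, were above wild type by 0.89, 0.87, 0.83 and 0.81 and became 0.72, 0.80, 0.77 and 0.65.

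At the low end, the island from 62695437 to 62695985 had a Cy3 level of 1.93 in clone 210-58, 1.95 in clone 226-47, 1.84 in PJ34 treated J1 and 1.82 in wild type. Its difference of 0.11 from wild type became 0.33 when matched on brightness. The islands from 120365427 to 120365890, 49974632 to 49975188 and 69811673 to 69813528 were bright too, with differences of 0.13, 0.17 and 0.17 that became 0.35, 0.39 and 0.39. The island from 100435100 to 100436047 was of middling brightness and stayed low, at 0.18 and 0.16.

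A stretch of 21 islands with 108 probes carried a further gain in clone 210-58. It ran from 100971981 to the end of its last island at 101601413, over 629433 bp, and the rule set it apart up to 101800510, the start of the next island. The Cy3 levels of its islands had a median of 1.24 in clone 210-58, -0.020 in clone 226-47, -0.077 in PJ34 treated J1 and -0.062 in wild type. Against wild type clone 210-58 was higher by a median of 1.26, with a range of 1.01 to 1.49 and an SD of 0.13 over islands. This is a 2.40-fold signal, and 1.71-fold that of the rest of the chromosome in the same comparison.

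In the stretch clone 226-47 differed from wild type by a median of 0.046 and PJ34 treated J1 by 0.0081. Clone 210-58 exceeded clone 226-47 there by 1.19 and PJ34 treated J1 by 1.26. All of these comparisons share the array of clone 210-58, whose high values set the stretch apart, so they give no separate support. Outside the stretch 2 islands reached its lowest value in clone 210-58, the higher of them from 68911271 to 68911507 with 3 probes and a difference of 1.15. That island was also above wild type by 0.46 in clone 226-47 and by 0.37 after PJ34. The other was above wild type by 1.02 in clone 210-58, 0.21 in clone 226-47 and 0.45 after PJ34. Wild type was thus the low array at both.

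Both ends of the stretch were sharp at the spacing of the islands. On the centromere side the last island outside, from 100935520 to 100936312, had a Cy3 difference of 0.42 and the first inside, from 100971981 to 100972392, had 1.14, with 35668 bp without an island between them. On the telomere side the last island inside, from 101600483 to 101601413, had 1.05 and the first outside, from 101800510 to 101801080, had 0.52, with 199096 bp between them. The next islands outward, from 100911248 to 100911889 and from 101842483 to 101843014, were at 0.51 and 0.44, the level of the rest of the chromosome. The 11 probes of the islands on the centromere side ran from 0.21 to 0.74 and the 11 on the telomere side from 0.25 to 0.73, while the 109 probes within the stretch, 1 of them outside any island at 0.93, ran from 0.53 to 1.91 with a median of 1.22. These values just inside and outside the limits chose the stretch and are given with no test.

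Along the stretch the Cy3 difference was above 1 at every island. The 4 islands that begin at 100971981, 100980148, 100986320 and 100989693 were above wild type by 1.14, 1.19, 1.14 and 1.14 in clone 210-58, and the one at 101041871 by 1.07. The islands at 101062219, 101069665, 101076698, 101079778 and 101081181 were above by 1.20, 1.27, 1.05, 1.31 and 1.26. All of these 10 islands stood at least 1.05 above wild type.

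Further out, the islands at 101117844, 101131856, 101233091, 101241006 and 101258622 were above wild type by 1.36, 1.31, 1.34, 1.23 and 1.35. The neighbours at 101281619 and 101283861 were at 1.34 and 1.01, and those at 101367799 and 101481647 at 1.32 and 1.28. The highest value, 1.49, belonged to the island from 101548766 to 101549238, the dimmest of the stretch with a wild type level of -1.01, and it became 1.33 when matched on brightness. Matched in this way the stretch had a median of 1.25 and a range of 1.03 to 1.33.

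**Figure D3:**
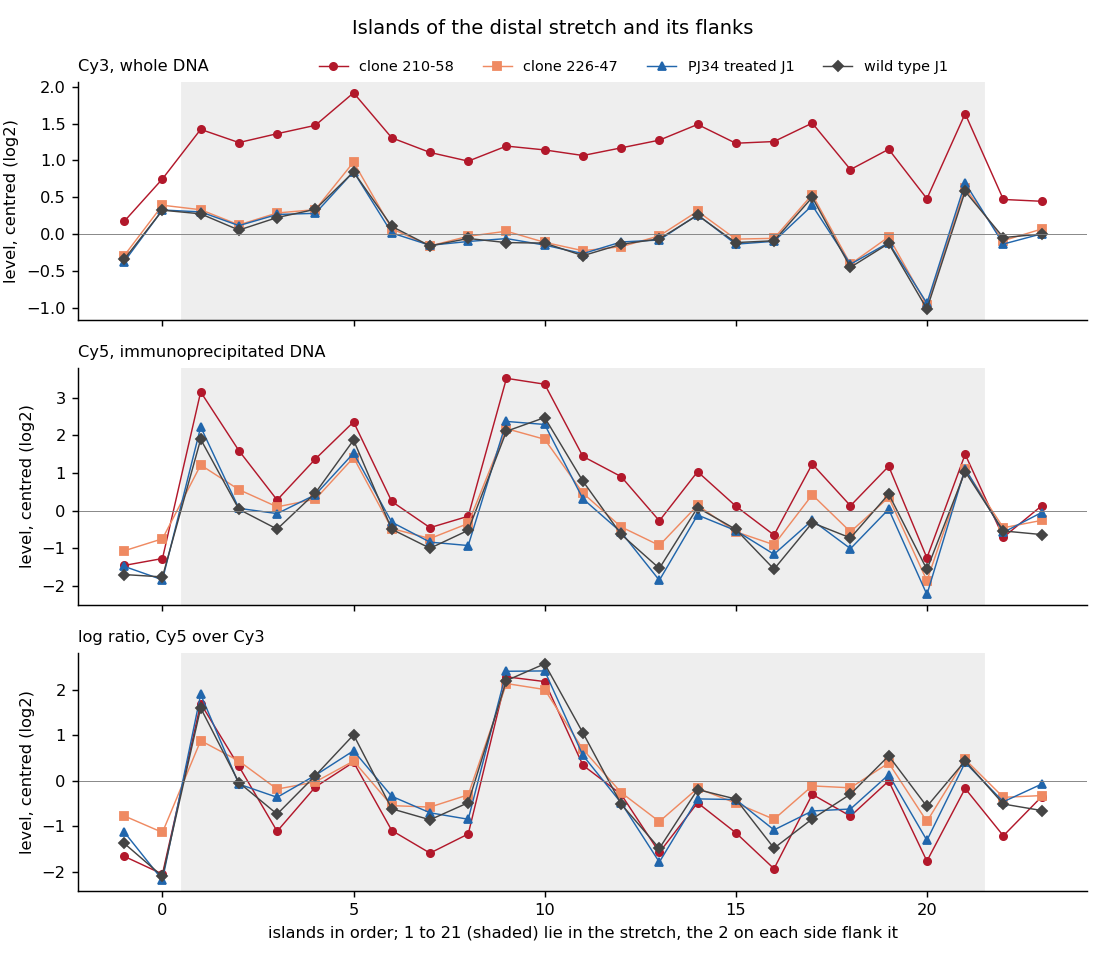
Cy3 level, Cy5 level and log ratio (log2, centred on the array, vertical axes) of the 21 islands of the stretch (shaded) and the 2 islands on each side, in order (horizontal axis, island number), on the arrays of clone 210-58, clone 226-47, PJ34 treated J1 and wild type J1. In Cy3 clone 210-58 lies 1.01 to 1.49 above wild type at every island of the stretch and the other arrays overlap, whereas in the log ratio clone 210-58 is below wild type at 16 of 21 islands.

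The immunoprecipitated DNA of the stretch was higher as well. The Cy5 level had a median of 1.03 in clone 210-58, 0.14 in clone 226-47, -0.12 in PJ34 treated J1 and -0.32 in wild type, and clone 210-58 was above wild type at 21 of 21 islands, by 0.31 to 1.56 with a median of 0.85. The log ratio had a median level of -0.30 in clone 210-58, -0.15 in clone 226-47, -0.36 in PJ34 treated J1 and -0.29 in wild type. Island by island it was lower in clone 210-58 than in wild type by a median of -0.45, with 5 of 21 islands above wild type, while clone 226-47 and PJ34 treated J1 differed by 0.032 and -0.035.

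Single islands of the stretch differed from wild type in the log ratio of clone 210-58 by -1.20 to 0.54. The islands from 101079778 to 101080024 and from 101081181 to 101081618 were the most enriched on all 4 arrays, with log ratios of 2.29 and 2.19 in clone 210-58, 2.14 and 2.01 in clone 226-47, 2.41 and 2.42 in PJ34 treated J1 and 2.21 and 2.58 in wild type. The largest difference in the log ratio of clone 210-58 was at the dim island from 101548766, which stood at -1.77 in clone 210-58, -0.89 in clone 226-47, -1.31 in PJ34 treated J1 and -0.56 in wild type. No island of the stretch differed in the log ratio of the clones from wild type at an adjusted p under 0.05 in the limma fit given below.

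Outside the stretch the gain of chromosome 11 in clone 210-58 was smaller in the immunoprecipitated DNA than in the whole DNA. The Cy5 level of the 1181 islands had a median of 0.44 in clone 210-58, 0.17 in clone 226-47, 0.025 in PJ34 treated J1 and 0.020 in wild type. Island by island the Cy5 difference from wild type had a median of 0.29 in clone 210-58, a 1.23-fold signal, with an interquartile range of 0.032 to 0.63 and 917 of 1181 islands, or 77.6%, above wild type. The medians of the 17 other chromosomes in the same comparison ran from -0.12 on chromosome 16 to 0.11 on chromosome X. The median Cy5 difference was 0.15 in clone 226-47, whose 17 other chromosomes ran from 0.036 to 0.13, and 0.017 after PJ34.

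The log ratio of chromosome 11 islands was accordingly lower in clone 210-58. Its median level was -0.21 in clone 210-58, -0.0018 in clone 226-47, -0.13 in PJ34 treated J1 and -0.11 in wild type. Island by island, clone 210-58 differed from wild type by a median of -0.19, with 424 of 1181 islands above wild type, below the range of the 17 other chromosomes, which ran from -0.14 on chromosome 16 to 0.026 on chromosome 17. It was 0.10 in clone 226-47, just above its other chromosomes (0.018 to 0.099), and 0.025 after PJ34, within theirs (-0.094 to 0.051). On chromosome 8, whose Cy3 was low in both clones, the median log ratio difference was positive, 0.10 in clone 210-58 and 0.19 in clone 226-47, and it was -0.046 after PJ34. The sign of the chromosome 11 value depended on how the signals were processed. With normexp correction, a model that estimates background jointly with signal, it was 0.045 in clone 210-58, with the other chromosomes at 0.18. That setting also started from the raw median signals and added an offset of 50. Which of these changes moved the value was not tested. Without normexp the other chromosomes were at -0.049, so the chromosome 11 median was below theirs either way.

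Set against the other chromosomes, the Cy5 difference of chromosome 11 in clone 210-58 went with how enriched the islands were. Islands were put in 6 classes by their mean log ratio over the 4 arrays, and the median difference of clone 210-58 from wild type on chromosome 11 was set against that of the other chromosomes in the same class. The arrays compared thus also set the classes, and no test was made. Chromosome 11 minus the others was 0.47 to 0.51 in Cy3 in all 6 classes. In Cy5 it was 0.33, 0.30 and 0.32 in the 3 classes below a log ratio of 1, with 169, 479 and 334 islands. It was 0.55, 0.50 and 0.60 in the classes of 1 to 2, 2 to 3, and 3 and over, with 113, 48 and 38 islands. In the log ratio the same values were -0.15, -0.20 and -0.13 in the lower classes, and 0.064, 0.060 and 0.12 in the upper ones.

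Set against the other chromosomes, enriched islands of chromosome 11 in clone 210-58 thus had a Cy5 difference at least as large as in Cy3. Weakly enriched islands had a smaller one. In clone 226-47 Cy3 was only 0.017 to 0.042 in the same classes. Its Cy5 was 0.084, 0.035 and 0.069 in the lower classes and 0.17, 0.078 and 0.18 in the upper ones. Its log ratio was 0.059, -0.014 and 0.011 in the lower classes and 0.13, 0.031 and 0.20 in the upper ones. How much of the higher Cy5 in enriched islands of clone 210-58 goes with its Cy3 gain was not tested. Classes were also set by clone 226-47 and PJ34 treated J1 alone, which leaves out clone 210-58 and wild type. The Cy5 of clone 210-58 was then 0.35, 0.31 and 0.31 in the lower classes and 0.52, 0.50 and 0.63 in the upper ones. Its Cy3 was between 0.47 and 0.53. This and the following settings were added after the data had been seen. With only probes well above background on all arrays the values were similar, with Cy5 at 0.21, 0.27 and 0.30 in the lower classes and 0.52, 0.50 and 0.60 in the upper ones. With normexp Cy5 was at 0.059, 0.085 and 0.15 in the lower classes and 0.39, 0.42 and 0.56 in the upper ones. Cy3 was then at 0.28, 0.30 and 0.29 in the lower classes and 0.29, 0.26 and 0.24 in the upper ones, below Cy5 in the enriched islands. On chromosome 8 the Cy5 differences of clone 210-58 were -0.29, -0.19 and -0.25 in the lower classes and -0.46, -0.36 and -0.35 in the upper ones, with Cy3 between -0.45 and -0.41. By Cy3 brightness instead of enrichment, chromosome 11 minus the others in the Cy5 of clone 210-58 was 0.38 in the dimmest class and 0.17 in the brightest.

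**Figure D4:**
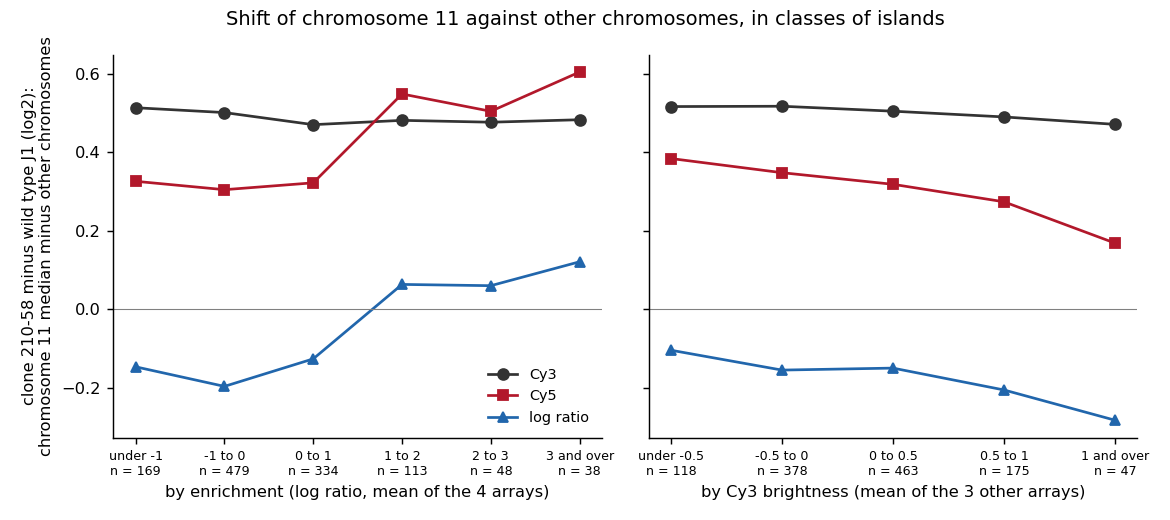
Median difference of clone 210-58 from wild type J1 (log2) on chromosome 11 minus that on the other chromosomes (vertical axis), in classes of islands by mean log ratio over the 4 arrays (left) and by Cy3 brightness on the 3 other arrays (right), with the number of chromosome 11 islands under each class. Cy3 stays at 0.47 to 0.52 in every class, while Cy5 is 0.30 to 0.33 in the 3 lower enrichment classes and 0.50 to 0.60 in the 3 upper ones.

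The share of strongly enriched islands on chromosome 11 was 7.37% in clone 210-58 (87 of 1181 islands at a log ratio of at least 2), 5.0% in clone 226-47 (59), 8.47% in PJ34 treated J1 (100) and 8.81% in wild type (104). On the other chromosomes it was 8.77%, 6.37%, 9.83% and 9.93% on the same arrays, so chromosome 11 was a little below them on each. At the other end, 289 islands (24.5%) were at -1 or less in clone 210-58, 68 (5.76%) in clone 226-47, 188 (15.9%) in PJ34 treated J1 and 173 (14.6%) in wild type. On the other chromosomes that share was 14.7%, 4.35%, 13.4% and 12.2%. Chromosome 11 therefore had more islands of low log ratio than the rest in every sample, and by the widest margin in clone 210-58.

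The 5 islands with the highest mean log ratio over the 4 arrays were strongly enriched on each of them. The island from 115619586 to 115619897 stood at 5.30 in clone 210-58, 4.88 in clone 226-47, 5.77 in PJ34 treated J1 and 4.57 in wild type. Those from 87687529 to 87687901, 67511641 to 67512010, 43334399 to 43334662 and 60885446 to 60885693 stood at 4.70 to 4.97 in clone 210-58, 4.41 to 4.54 in clone 226-47, 5.29 to 5.55 in PJ34 treated J1 and 4.26 to 4.56 in wild type. PJ34 treated J1 was the highest array at all 5, and clone 210-58 came next at each. A high PJ34 array was not particular to chromosome 11. In regions with a mean log ratio of 3 and over, the median difference from wild type after PJ34 was 0.50 on chromosome 11 and 0.46 on the other chromosomes. It was 0.15 and 0.027 in clone 210-58, and -0.20 and -0.41 in clone 226-47. Among islands of 5 or more probes the least enriched were those from 77992686 to 77993512, 94892058 to 94893338 and 102100745 to 102101174, at -2.78 to -2.28 in clone 210-58, -1.67 to -1.37 in clone 226-47, -2.65 to -2.36 in PJ34 treated J1 and -2.74 to -2.58 in wild type. Clone 226-47 read highest there, but Cy5 was well above background at only 2 of 8, 7 of 11 and 3 of 5 of their probes in PJ34 treated J1 and 3 of 8, 6 of 11 and 2 of 5 in wild type, so the order of these low values is uncertain. The log ratios of clone 226-47 also spanned less over the whole chromosome, with an interquartile range of -0.47 to 0.53, against -0.70 to 0.62 in wild type. The same held on the other chromosomes, with -0.39 to 0.61 against -0.60 to 0.76.

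Single islands of chromosome 11 that differed in the log ratio were counted by size. In clone 210-58, 73 of the 1181 islands, or 6.18%, differed from wild type by at least 1, with 37 higher and 36 lower. The background over all 14121 regions was 6.31%, with 3.31% higher and 3.0% lower. In clone 226-47 there were 37 such islands, or 3.13% (15 higher, 1.27%, and 22 lower, 1.86%), beside a background of 3.92% (0.963% higher and 2.96% lower), and after PJ34 39, or 3.30% (27 higher, 2.29%, and 12 lower, 1.02%), beside 3.70% (2.44% higher and 1.25% lower). The shares in clone 210-58 and after PJ34 lie near the background. In clone 226-47 fewer islands than in the background were lower. No test was made of these shares.

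The split by direction depended on the centring. Centred on the median of chromosome 11 instead of the array, which takes out the shift of -0.19, 77 islands passed in clone 210-58, with 60 higher (5.08%) and 17 lower (1.44%). The other chromosomes, still centred on the array, had 3.17% higher and 2.97% lower. The islands that were lower when centred on the array were dim, with a median Cy3 brightness of -0.27 against 0.11 for all 1181, and only 3 of 36 were brighter than the median island. Those that were higher had a median brightness of 0.21, and 22 of 37 were brighter than the median island. Matched on brightness 61 islands passed, 36 higher (3.05%) and 25 lower (2.12%), against 3.72% and 1.91% on the other chromosomes. The part of brightness in these calls was not tested further.

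**Figure D5:**
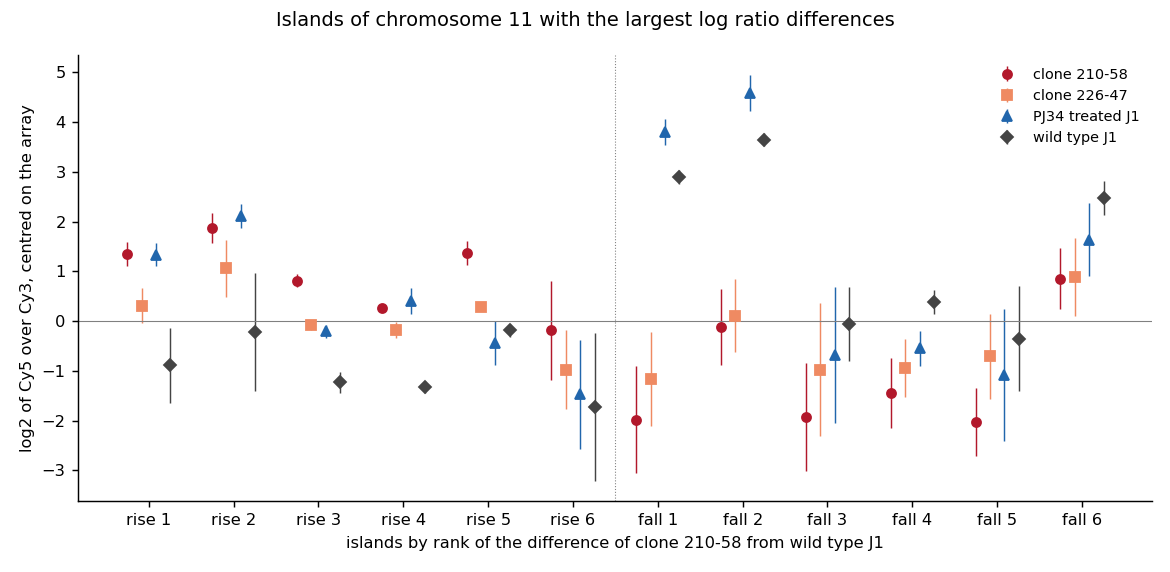
Log ratio (log2 of Cy5 over Cy3, centred on the array, vertical axis) of the 6 islands with the largest rise and the 6 with the largest fall of clone 210-58 against wild type J1 on chromosome 11 (horizontal axis, by rank), with 1 symbol for each array and bars of 1 SD over the probes of the island. At falls 1 and 2 both clones lie far below the PJ34 treated and wild type arrays, and at rises 1, 2 and 4 the PJ34 treated array lies with clone 210-58.

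The islands with the largest falls in clone 210-58 were unenriched in both clones. The island from 22872000 to 22873052, with 9 probes, had a log ratio of -1.98 in clone 210-58, -1.16 in clone 226-47, 3.80 in PJ34 treated J1 and 2.89 in wild type. The island from 11925467 to 11926345, with 10 probes, had -0.12 in clone 210-58, 0.11 in clone 226-47, 4.58 in PJ34 treated J1 and 3.65 in wild type. Both were thus near or below the array median in the clones and well above it in PJ34 treated and wild type cells. The whole DNA signal of clone 210-58 was nevertheless above wild type at both, by 0.72 and 0.56 like the rest of the chromosome, while its Cy5 signal differed from wild type by -4.14 and -3.19. In clone 226-47, whose Cy3 was 0.069 and 0.10 above wild type, the Cy5 differences were -4.01 and -3.45.

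The 4 other falls were smaller. The island from 53823152 to 53823989 stood at -1.93 in clone 210-58, -0.98 in clone 226-47, -0.68 in PJ34 treated J1 and -0.063 in wild type, and the one from 52157527 to 52157975 at 0.85, 0.88, 1.64 and 2.48 on the same arrays. Those from 98840067 to 98840316 and 83945844 to 83946086, with 3 probes each, stood at -1.45 and -2.02 in clone 210-58, -0.94 and -0.70 in clone 226-47, -0.55 and -1.08 in PJ34 treated J1 and 0.38 and -0.36 in wild type. At all 4 of them wild type was the highest array, and PJ34 treated J1 lay below it as well. The falls were ranked by clone 210-58 minus wild type, which favours islands that read high on the lone wild type array. At the islands from 53823152 and 83945844 some probes were not well above background in Cy5 on the arrays other than wild type, with 5 of 7 and 2 of 3 probes above it.

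Among the rises, the island from 100529893 to 100530474, with 7 probes, had a log ratio of 1.35 in clone 210-58, 0.31 in clone 226-47, 1.34 in PJ34 treated J1 and -0.89 in wild type. It lies on the centromere side of the stretch. The bright island from 69376370, described above for its lack of a Cy3 gain, had 1.87, 1.06, 2.11 and -0.21 on the same arrays. The islands from 44463661 to 44464105 and 95401387 to 95401628 had 0.81 and 0.26 in clone 210-58, -0.081 and -0.18 in clone 226-47, -0.21 and 0.41 in PJ34 treated J1 and -1.23 and -1.33 in wild type. In these 4 islands wild type was the lowest array by at least 1. The rises were ranked by clone 210-58 minus wild type, which favours islands that read low on the lone wild type array.

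In the other rises wild type was not lower than every other array by that much. The island from 60627388 to 60627620, with 3 probes, had 1.37 in clone 210-58, 0.29 in clone 226-47, -0.43 in PJ34 treated J1 and -0.19 in wild type. The island from 120003691 to 120004607, with 6 probes, had -0.19, -0.97, -1.47 and -1.72 on the same arrays. It remained below the array median throughout, and 4 of its 6 probes were well above background in Cy5 in PJ34 treated J1 and in wild type.

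The only comparison with a replicate on 1 side is that of the 2 Parp-1 deficient clones with the wild type array, and it was fitted with limma over all 14121 regions with Benjamini-Hochberg adjustment. The fit had 1 residual degree of freedom, the spread came from the clones alone, and the lone wild type array is assumed to vary like them. On chromosome 11, 19 of 1202 islands passed an adjusted p of 0.05, or 1.58%, beside a background of 2.78% of all regions. Of these 9 were higher in the clones (background 1.19%) and 10 lower (background 1.59%), and 121 islands had an unadjusted p under 0.05. The arrays of this fit also chose the chromosome, so nothing is read from these shares. Which islands passed depended on the scaling: with quantile normalization 3 of the 10 lower islands and none of the 9 higher ones still passed.

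Both clones lay on the same side of wild type at all 19 islands, which a call on the mean of the clones largely brings about. The differences of PJ34 treated J1 below use the same wild type array from which these islands were picked. Neither is thus separate evidence for the calls. The 9 higher islands had a median difference from wild type of 1.56 in clone 210-58 and 0.91 in clone 226-47, and PJ34 treated J1 was above wild type at 8 of them with a median of 1.20 over the 9. The 10 lower islands had a median difference of -1.51 in clone 210-58, -1.33 in clone 226-47 and -0.64 after PJ34, and PJ34 treated J1 was above wild type at 2 of them. The island from 22872000 differed by -4.46 (SE 0.29, limma adjusted p = 1.12e-47) and the island from 11925467 by -3.65 (SE 0.33, limma adjusted p = 2.73e-24). They are the islands where PJ34 treated J1 stood above wild type, and each SE largely follows the trend fitted over all regions rather than these clones.

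Of the rises above, the islands from 100529893, 69376370, 44463661 and 95401387 differed by 1.72, 1.68, 1.60 and 1.37, with limma adjusted p between 3.11e-06 and 0.00279. The rise at 60627388 passed as well, by 1.01 at a limma adjusted p of 0.031, but that at 120003691 did not, with a limma adjusted p of 0.29. The other named rises were the islands from 96099086 to 96099499 and from 98679722 to 98680248, which differed by 1.08 and 1.07 with limma adjusted p of 0.019 and 0.037. Their log ratios were 1.25 and 1.66 in clone 210-58, 0.69 and 1.07 in clone 226-47, 0.74 and 0.75 in PJ34 treated J1 and -0.11 and 0.30 in wild type, with wild type the lowest array at both. The rises at 60627388, 96099086 and 98679722 no longer passed without the trend or when matched on brightness, so these calls depend on the settings.

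Of the falls, the islands from 52157527 and 98840067 differed by -1.61 and -1.57 with limma adjusted p of 0.00057 and 0.0039, and those from 53823152 and 83945844 did not pass, with limma adjusted p of 0.15 and 0.49. The remaining named falls were the islands from 65086086 to 65086361 and from 54746168 to 54746505, which differed by -1.33 and -1.30 with limma adjusted p of 0.0017 and 0.0022. Their log ratios were 0.11 and -0.058 in clone 210-58, 0.42 and 0.40 in clone 226-47, 1.13 and 0.68 in PJ34 treated J1 and 1.59 and 1.47 in wild type. At both, clone 210-58 was the lowest array, followed by clone 226-47, PJ34 treated J1 and wild type. The fall at 54746168 no longer passed without the trend. In every named island that was called, the Cy3 signal of clone 210-58 was 0.36 to 0.85 above wild type, except the bright island from 69376370.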

How the data were processed

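Per the labels' protocols, genomic DNA was extracted with phenol and chloroform and sonicated, part of it was immunoprecipitated with an antibody against 5-methylcytidine, and both parts were labelled for Agilent arrays. Per the file headers, the scans were quantified with Agilent Feature Extraction 10.7.3.1 (version 9.1 in the submitters' processing notes) into the deposited intensity columns, and the processed intensity is background-subtracted, spatially detrended and dye-normalized by a linear factor per channel. The deposited value table holds the ratio of processed Cy5 to Cy3 of the same array, linear, not centred and equal within a relative 2.1e-08, with medians of 0.781 for clone 210-58, 0.810 for clone 226-47, 0.772 for PJ34 treated J1 and 0.832 for wild type. The sources used here name no genome build.

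Of 97651 probes per array, 30 with an outlier flag on any array and 442 without a position were left out, as were control spots, and no probe was saturated. Log2 values were centred on each array's median with no loess or quantile step, and islands were means over probes (Python 3.11.15, numpy 2.4.6, pandas 2.3.3). The 2 clones were compared with wild type by limma 3.58.1 in R 4.3.3 (lmFit, eBayes with trend), and the step was tested on simulated data. Other comparisons have 1 array on each side and use a fixed size of 1 on the log2 scale. Brightness matching subtracts the median of regions on the 17 other chromosomes in bins of 0.25 of mean Cy3 level over clone 226-47, PJ34 treated J1 and wild type. The number of arrays limits the precision, and nothing says that the clones are more than single cultures, so p-values measure the spread between these samples, which may be technical.

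Islands were named by rule: outside the stretch, the 5 highest and 5 lowest Cy3 differences of clone 210-58 among islands of at least 5 probes; the first and last island, all islands of the stretch and 2 on each side; the 6 largest rises and falls of its log ratio centred on chromosome 11 where 75% or more of the probes moved that way; the 6 largest rises and falls called by limma with both clones on the same side; and the 5 highest mean log ratios and, among islands of at least 5 probes, the 3 lowest. The members and lists were chosen with earlier results of these data known. Lists of chromosome 11 genes (Hoxb, imprinted, DNA repair, chromatin, growth and germline genes) could not be tied to probes and were not used for any value.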

Additional observations from a re-analysis of the deposited data

Results flagged for a closer look

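Values in which both clones lay on one side of wild type and PJ34 treated J1 on the other were picked out for a closer look. In each case the difference between the clones and PJ34 treated J1 was not tested. Clone 226-47 shared the slide of PJ34 treated J1, and clone 210-58 that of wild type. Slide thus cannot be told apart from PJ34 treatment or from clone 226-47 in their comparisons with wild type. The median Cy3 difference of the 1181 islands outside the stretch averaged 0.28 over the 2 clones, which rests on clone 210-58 (0.49) far more than on clone 226-47 (0.071), and was -0.0022 after PJ34. The PJ34 value is smaller than the SD of 0.022 over its other chromosomes' medians and turns positive with normexp (0.0015) and with the mean over islands (0.0067).

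The island from 22872000 to 22873052 differed in the log ratio from wild type by -4.46 on average over the clones and by 0.91 after PJ34. The island from 11925467 to 11926345 differed by -3.65 over the clones and by 0.94 after PJ34. The island from 60627388 to 60627620, with 3 probes, differed by 1.01 over the clones and by -0.25 after PJ34.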

How the results depend on the processing

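Of 78 values under other settings, 50 stayed within the tolerance set for them (for medians the SD over the other chromosomes' medians, for counts 1.5 times), 27 moved and 1 reversed. Values of PJ34 near 0 changed sign within that tolerance: its Cy3 median became 0.0015 with normexp and 0.0067 as a mean, and its Cy5 median -0.00071 when matched on brightness. The cause of each move was not tested unless the setting itself makes it. With normexp correction the Cy3 median of clone 210-58 was 0.39 (other chromosomes at 0.096), its Cy5 median 0.22 (0.092), its log ratio median 0.045 with reversed sign (0.18), the stretch 1.08, and 19 islands (15 higher, 4 lower) differed by at least 1, while clone 226-47 had 0.076 in Cy5 and 0.042 in the log ratio and PJ34 0.060 in Cy5. With means over islands Cy5 was 0.36 in clone 210-58 and 0.11 in clone 226-47, whose log ratio was 0.060. With probes well above background Cy5 was 0.13 in clone 226-47 and 0.066 after PJ34, the PJ34 log ratio was 0.074, and limma called 43 islands. Centred without chromosomes 8, 11 and 14, clone 226-47 had a Cy3 median of 0.047. Matching on brightness, chosen after seeing the data, gave 0.035 in Cy3, 0.070 in Cy5 and 0.025 in the log ratio of clone 226-47 and a share above wild type of 100% in clone 210-58, against 98.1% over single probes. The count at a size of 1 in clone 210-58 was 117 (52 higher, 65 lower) with medians over probes, 418 (133 and 285) at a size of 0.5, and 37 with clone 226-47 in its place. limma called 3 islands after quantile normalization and 10 without the trend, against 19. With 1 clone left out no limma test was possible, and 37 to 74 islands differed by at least 1, the 37 without clone 210-58. No paired analysis was possible because the labels number no replicates across groups. The Cy5 signal over background limits low log ratios.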
